A study of Mus musculus with 6 samples.

Results

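The 3 control siRNA libraries of a mouse articular chondrocyte study were described as an expression profile of transfected control cells. The series holds no untransfected library, so a resting level was not measured. They are 3 of the 6 RNA-seq libraries of the series and were chosen by their label, control siRNA. The cells were a primary culture of chondrocytes from articular cartilage, with the genotype given as control, and their total RNA was taken 36 h after transfection. The other 3 libraries, from cells that received an siRNA against Irf1, enter no value below. Strain, age, sex, number of animals, passage and culture medium are not given in the labels. The origin of the replicates (1 culture or several, 1 animal or more) is not stated either, and the spread between them may be technical.

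Articular chondrocytes build and keep the matrix that covers the ends of bones. They spin thin fibrils of type II collagen, joined by collagens IX and XI, and fill the space between them with aggrecan, a large proteoglycan held on hyaluronan by link protein. Cells near the joint surface also secrete lubricin, cells that enlarge before bone formation make type X collagen, and chondrocytes kept in flat culture are known to take up type I collagen over time.

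Levels are given on 2 scales. CPM is the count of a gene per 1000000 counts of its library and serves to compare libraries. TPM divides the count by the gene's exon length before scaling each library to 1000000 and serves to compare genes. Values after ± are SDs over the 3 libraries (n = 3), and values in threes follow control replicates 1, 2 and 3. A gene was counted as expressed at 1 CPM or more in all 3 libraries, which took 29, 29 and 30 counts, and a gene given as below 1 CPM missed that level in at least 1 library. The libraries held 28731426, 28565096 and 29282494 counts, so 1 count was worth 0.0342 to 0.0350 CPM, and 0 counts allows a level of up to 0.102 to 0.105 CPM (3 counts, counting error only).

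Of 55377 genes in the table, 12451 were expressed, 30630 had no count in any library, and 12296 had some counts below the minimum. The expressed genes held 99.8% of all counts, and their median level was 23.2 TPM. Protein-coding genes made up 11638 of them, out of 21914 in the table, and 97.7% ± 0.0314 of the counts. Counts of expressed members of a list or family below are to be read beside that share. A mean of 100 TPM was reached by 1797 genes and one of 1000 TPM by 119. The counts were concentrated in few genes: the 10 most abundant held 17.7% ± 1.30, and the most abundant 497, 516 and 572 genes held 50% in the 3 libraries. Col2a1 alone took 7.14% ± 0.956.

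The 3 defining chondrocyte markers were all expressed, 2 of them among the most abundant messages of the culture. Col2a1 (ENSMUSG00000022483.18), the type II collagen chain, ranked first on both scales, with 79482, 73988 and 60877 CPM and 31359 ± 4515 TPM. Acan (ENSMUSG00000030607.8), the aggrecan core protein, ranked 9th by TPM with 9579, 8709.9 and 7578 CPM and 4683 ± 593 TPM. Replicate 3 was the lowest library for both genes. Sox9 (ENSMUSG00000000567.6), the transcription factor that switches on both, had 316, 322 and 298 CPM and 306 ± 15.4 TPM, which put it at rank 501 among all genes, with replicate 3 again lowest. All 3 markers were thus present in every library, as the labelled cell type calls for.

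Below Col2a1, the list of most abundant messages mixed matrix genes with genes of protein synthesis. Fn1, fibronectin, was second with 15531 ± 750.1 TPM. H19, a noncoding RNA, was the third with 15282 ± 1071, and Eef1a1, the elongation factor that delivers transfer RNAs, the fourth with 10776 ± 292. Thbs1 (thrombospondin 1, 6578 TPM), Sparc (a collagen-binding glycoprotein, 5559.96), Ftl1 (ferritin light chain, 5312) and Rplp1 (a ribosomal stalk protein, 4864) came before Acan. Ranks 10 to 20 held Comp (cartilage oligomeric matrix protein, 4528 TPM), Spp1 (osteopontin, 4326), Mt2 (a metallothionein, 4259), Serpinh1 (the collagen chaperone, 4239), Col9a1 (3866), Rplp0 (3636), P4hb (3432), Col11a2 (3409), Ldha (3204), Timp1 (3145) and Vim (vimentin, 3081). The last 10 of the first 30 were Eef2, Col11a1, Rpl4, Cnmd, Actb, Col9a2, Ccn2, Lgals1, Rps2-ps13 and Bsg, between 3053 TPM for Eef2 and 2748 TPM for Bsg. Rps2-ps13 is annotated as a processed copy of Rps2, and reads of the parent gene and its copy may be split between them. Neighbours in this order often overlapped: the ranges of 1 SD around the means of Acan, Comp, Spp1 and Mt2 overlapped one another.

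**Figure D1:**
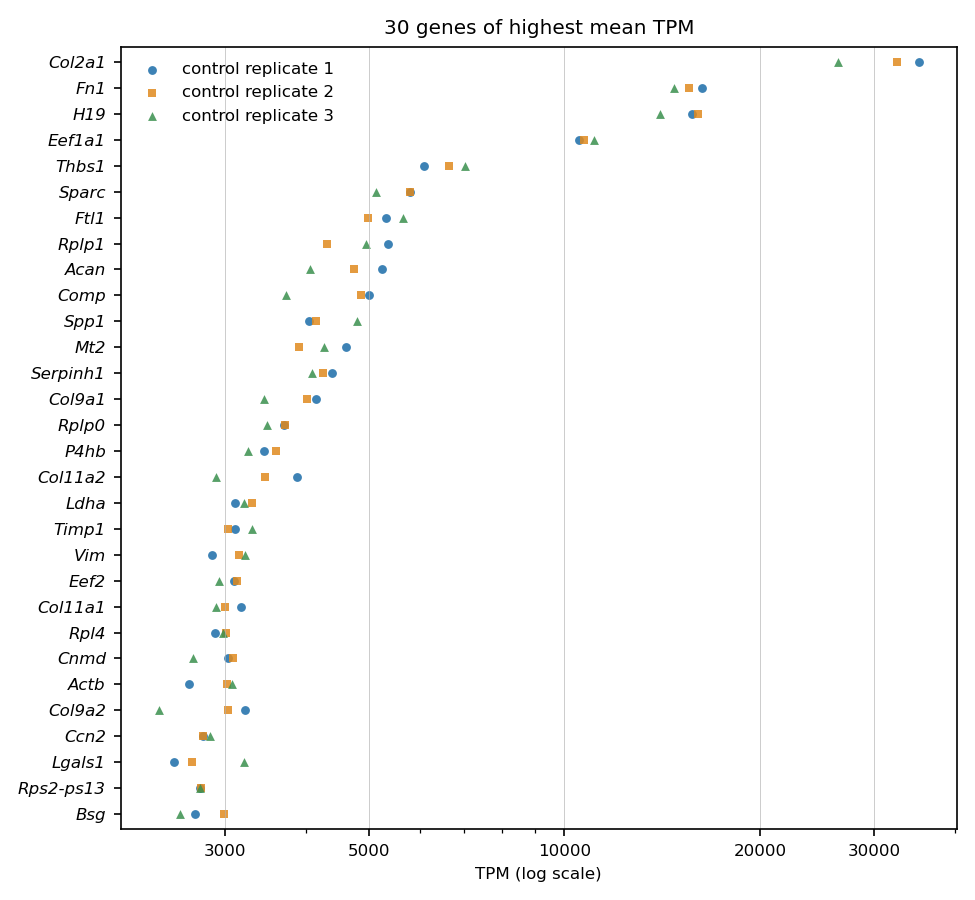
TPM (log scale) of the 30 genes with the highest mean TPM, with 1 symbol per gene for each of the 3 control libraries. Col2a1 lies apart from the rest at 26367 to 35158 TPM, and replicate 3 is the lowest library for Col2a1, Fn1, H19, Acan, Comp, Col9a1 and Col11a2, among others.

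By counts alone the order was different, since long transcripts collect more reads. The 10 genes of highest CPM were Col2a1, Fn1 (44767 CPM), Thbs1 (9863), Col11a1 (9517), H19 (9272), Acan (8622), Eef1a1 (6630.4), Col11a2 (5777), Timp3 (5482) and Sparc (5195).

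Genes of the cartilage matrix were expressed almost without exception. Of 31 listed, 29 reached 1 CPM, and together they took 11.7% ± 1.36 of the counts, with a summed level of 128532, 120362 and 102006 CPM. The fibril collagens led it. Col9a1 had 3866 ± 369 TPM, Col11a2 3409 ± 486, Col11a1 3027 ± 134 and Col9a2 2874 ± 446, and Comp, which bridges collagen fibrils, had 4528 ± 697. Cnmd, chondromodulin, which keeps vessels out of cartilage, had 3034, 3086 and 2677 TPM in the 3 libraries. The members below the minimum were Cilp, the intermediate layer protein, with 3, 4 and 5 counts, and Mia with 27, 7 and 10. Matrilins, adaptor proteins of cartilage matrix, were expressed as a whole family: Matn1 had 1137 ± 225 TPM, Matn3 833 ± 69.9, Matn4 51.98 ± 7.05 and Matn2 26.4 ± 0.232.

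The collagen family as a whole showed 36 of 44 genes expressed and 11.9% ± 1.26 of the counts, nearly all of it in few chains. In TPM the sum over the family was 59897 ± 6814, of which Col2a1 alone was 31359. Col1a1, the type I chain of bone, skin and tendon, had 2759, 2512 and 2224 TPM. Its level lay below that of Col2a1 in every library, and the ratio of Col2a1 to Col1a1 was 12.5 ± 0.584 on exon-union lengths and 20.5 on the longest annotated transcript. The ratio of Col2a1 to Acan moved likewise, from 6.69 ± 0.187 to 11.9. Col3a1, which is found with type I in loose connective tissue, had 349 ± 23.6 TPM, 89.4 ± 7.19 times below Col2a1. Among the other chains, Col6a1 of the pericellular matrix had 2295 ± 129.9 TPM. Col4a3 and Col4a4 were among the 8 members below 1 CPM, with Col13a1, Col19a1, Col23a1 and Col6a4.

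**Figure D2:**
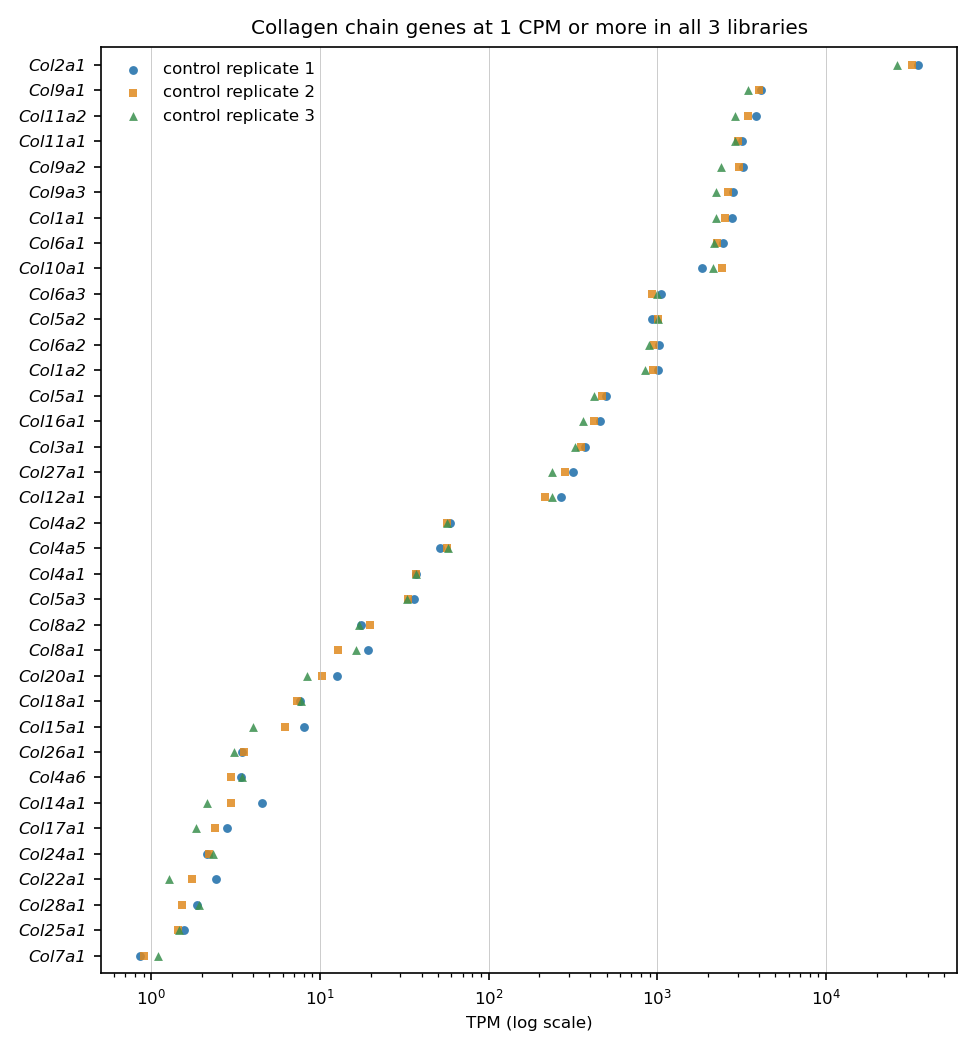
TPM (log scale) of the 36 collagen genes at 1 CPM or more in all 3 control libraries, with 1 symbol per library. Col2a1 stands at 26367 to 35158 TPM, the chains of collagens IX and XI follow between 2234 and 4142, and Col1a1, at 2224 to 2759, overlaps the lower part of that range.

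The machinery that folds and crosslinks collagen was expressed without exception, 33 of 33 genes and 2.25% ± 0.0612 of the counts. Sparc (5559.96 TPM), the chaperone Serpinh1 (4239) and P4hb (3432), the shared subunit of prolyl 4-hydroxylase, were the most abundant. Lox, the lysyl oxidase that starts crosslinking, had 1657 ± 146 TPM, Fkbp10 1029.7 ± 62.98, Loxl4 912 ± 23.5, P4ha1 856 ± 24.5 and Plod2, a lysyl hydroxylase, 849 ± 20.8. The general secretory machinery of the endoplasmic reticulum was likewise expressed in all 37 listed genes, led after P4hb by Calr (2076 TPM), Hspa5 (1927) and Pdia3 (1536).

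For the proteoglycan side of the matrix, 39 of 42 genes of glycosaminoglycan synthesis were expressed. Papss2, which makes the sulfate donor, was the highest with 1402 ± 81.4 TPM. Ugp2 (343 TPM) and Ugdh (271) supply the sugar nucleotides, Xylt1 (242) starts the chain on the core protein, Chsy1 (266) extends chondroitin, and Chst11 (328) sulfates it. Slc26a2, the sulfate transporter, had 201 ± 6.57 TPM. Chst13, Has1 and Has3 were below 1 CPM, so that Has2 (56.5 ± 1.63 TPM) was the only one of the 3 hyaluronan synthases to reach it. Hapln1, cartilage link protein, had 1250.3, 1306 and 1279 TPM, while Hapln2 and Hapln4 were below 1 CPM. Unlike Acan, Hapln1 was not lowest in replicate 3, and the Acan to Hapln1 ratio was 4.19, 3.63 and 3.18 in the 3 libraries.

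Small leucine-rich proteoglycans, which space collagen fibrils, were present in 11 of 15 members. Fmod, fibromodulin, led with 1605 ± 152 TPM, before Bgn (biglycan, 1170.2 ± 90.2), Epyc (epiphycan, 677 ± 7.15), Lum (632 ± 27.3), Prelp (309 ± 15.9), Dcn (decorin, 294 ± 12.6), Ogn (198 ± 23.7) and Chad (128 ± 20.02). Aspn, Kera, Nyx and Optc were below the minimum. Aspn came near it, at 0.870, 0.875 and 0.751 CPM.

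Genes of different depths of cartilage were expressed side by side. Of 14 genes linked to the superficial zone, 12 were expressed. Prg4, lubricin, had 44.7, 38.4 and 35.7 TPM, and Htra1 (364 TPM), Cd44 (127), Tgfbr2 (106), Gdf5 (65.3), Clu (51.3) and Gas1 (39.996) had higher means, Gas1 within the SD of Prg4. Erg (21.5 TPM), Abi3bp (12.3), Thbs4 (12.1), Postn (5.87) and Creb5 (0.843) were lower, and Cilp and Sfrp2 did not reach 1 CPM.

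Of 20 genes linked to hypertrophy and the growth plate, 15 were expressed, several of them at high levels. Spp1 had 4035, 4150.2 and 4793 TPM and was highest in replicate 3. Col10a1, the collagen of hypertrophic cells, had 1851, 2404 and 2139 TPM, lowest in replicate 1, and stood at rank 42. Mmp13, the collagenase that cleaves type II collagen, had 491, 555 and 673 TPM. Vegfa (289.6 TPM), the receptors Fgfr3 (248) and Pth1r (148), the bone sialoprotein gene Ibsp (144) and the channel gene Panx3 (132) followed. Ihh, which proliferation and hypertrophy of growth plate cells depend on, was low at 4.39, 5.14 and 3.81 TPM. Pthlh, the ligand of Pth1r, had 7, 8 and 4 counts, and Bglap, Dmp1, Phex and Ranbp3l were also below 1 CPM. In a bulk sample, fewer cells of a type and less RNA per cell cannot be told apart, so these levels do not say whether all cells or some carried the message.

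Messages of the TIMP inhibitors exceeded those of the matrix metalloproteinases. Among the TIMP genes, whose products block metalloproteinases, Timp1 had 3107, 3029.97 and 3297 TPM, Timp3 2717, 2789 and 2679 and Timp2 624, 617 and 617. Timp4 had 2, 1 and 1 counts. The family summed to 6492 ± 87.3 TPM, against 1015 ± 77.4 for the 22 matrix metalloproteinase genes, of which 12 were expressed. Of these, Mmp13 (573 TPM) exceeded Mmp2 (149.9), Mmp14 (149.5) and Mmp3 (stromelysin, 83.9), and Mmp23 (12.6), Mmp16 (11.4), Mmp28 (10.8) and Mmp10 (7.47) were lower. On the same scale the 19 ADAMTS genes summed to 168 ± 4.81, with 11 expressed. Adamts1 had 99.9 ± 3.52 TPM and Adamts5, an aggrecanase, 11.99 ± 0.601. Adamts4, the other main aggrecanase, had 2.16, 2.22 and 2.30 TPM. Of the lysosomal cathepsins, 11 of 23 were expressed, led by Ctsd (958 TPM), Ctsz (344), Ctsb (332) and Ctsl (246).

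The transcription factors of the lists and families drawn up here numbered 635, of which 472 were expressed. Hif1a, the oxygen-sensing factor, was the highest with 406, 416 and 414 TPM. Tbx15, a T-box factor of limb skeletal development, was next with 295, 345 and 330.1, and Sox9 the third. After them came Jund (254 TPM), Junb (198), the retinoic acid receptor Rarg (169.6), Klf6 (160.3), Klf4 (147), Pitx1 (139), Fos (138), Shox2 (117), Bhlhe40 (113), Jun (104), Egr1 (104) and Zfp106 (97.7). Among 32 chondrogenic factors, 29 were expressed, and Barx2, Dlx6 and Nfatc2 were not. The Sox partners of Sox9 were lower: Sox6 had 41.2 ± 0.337 TPM and Sox5 17.2 ± 0.610, and the Sox9 to Sox6 ratio was 7.43 ± 0.422 on exon-union lengths and 4.34 on the longest transcript. Sox4 (37.7 TPM), Sox8 (26.3), Sox12 (16.6) and Sox11 (14.9) were also expressed. Runx3 had 43.9 ± 4.55 TPM.

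Positional genes were expressed in part. Of 39 Hox genes, the factors that encode position along the body and limb axes, 18 were expressed, beside 11638 of all 21914 protein-coding genes. By cluster, 9 of 11 were expressed in A, 7 of 9 in C, 2 of 9 in D and 0 of 10 in B. Hoxa10 had 77.8, 87.6 and 85.6 TPM, Hoxa11 73.9, 73.3 and 69.4 and Hoxc10 49.7, 49.5 and 55.7. Hoxa9 (29.3 TPM), Hoxa7 (17.4), Hoxa5 (14.1), Hoxc6 (14.05) and Hoxc8 (10.02) were next. Paralogue groups 9 to 11 held 72.5% of the summed Hox TPM of 357 ± 7.57, and groups 12 and 13, which pattern hands and feet, had no expressed member. Pitx1 and Tbx4, known as hindlimb factors, had 148, 147 and 122 and 17.8, 13.8 and 14.7 TPM. Tbx5, their forelimb counterpart, had 3.14, 2.83 and 2.49 TPM and was chosen for naming after its value was seen. The ratio of Tbx4 to Tbx5 was 5.48 ± 0.552, and each library showed Tbx4 above Tbx5. Shox2 (117 ± 1.85 TPM), Prrx1 (46.2 ± 2.52) and Prrx2 (34.6 ± 1.38) were expressed too, while Alx4, Emx2, En1, Hand2 and Otx2 were among those below 1 CPM.

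Imprinted genes, of which only 1 parental copy is read, took 1.86% ± 0.0663 of the counts with 26 of 31 expressed. H19 led by a wide margin with 15735, 16051 and 14058 TPM. Mest (1989 ± 81.6 TPM), Peg3 (521 ± 14.2), Plagl1 (475 ± 17.1), Gnas (451 ± 27.6), Grb10 (422 ± 8.08), the cell cycle inhibitor Cdkn1c (258 ± 11.4) and Igf2r (239 ± 11.5) followed. Igf2, the neighbour of H19 that shares its enhancers and is read from the other parental copy, had 89.9, 73.9 and 65.4 TPM. The H19 to Igf2 ratio was 175, 217 and 215 in the 3 libraries. H19 also dominated the noncoding RNA list, 33 of 39 expressed, before Gas5 (257 TPM), Malat1 (227), Norad (124), Snhg5 (104), Xist (103), Rian (101) and Snhg18 (97.03).

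Several microRNAs are cut from transcripts that were abundant here, and their mature sequences are shown because their hosts, H19, Mest, Wwp2 and Col27a1, are imprinted or cartilage genes of this profile. Of 1027 RefSeq microRNA loci, 694 lay within a gene on the same strand and 512 within an expressed one. In the lines below, capitals mark the seed, bases 2 to 8, and positions are on GRCm38.p6.
miR-675-5p, chr7:142577112-142577133, minus strand, in an exon of H19: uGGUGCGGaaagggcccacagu
miR-675-3p, chr7:142577078-142577099, minus strand, in an exon of H19: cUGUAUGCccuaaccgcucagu
miR-335-5p, chr6:30741314-30741336, plus strand, in an intron of Mest: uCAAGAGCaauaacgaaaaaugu
miR-140-3p, chr8:107551288-107551308, plus strand, within Wwp2: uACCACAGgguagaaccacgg
miR-455-5p, chr4:63256867-63256888, plus strand, in an intron of Col27a1: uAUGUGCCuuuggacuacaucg
miR-455-3p, chr4:63256904-63256924, plus strand, in an intron of Col27a1: gCAGUCCAcgggcauauacac
The 6 sequences have 6 different seeds. Wwp2, the host of miR-140, which cartilage is known for, had 388, 372 and 342 TPM, and Col27a1, a fibril collagen, had 314, 284 and 239 TPM. Both were lowest in replicate 3. The miR-140 hairpin lies inside an exon of at least 1 annotated Wwp2 transcript. Libraries of polyadenylated RNA do not measure mature microRNAs, so these are levels of the hosts only.

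Promoters of the most abundant genes were searched for the TATA motif TATAAA on the strand of the gene, with its first base 40 to 20 bases before the annotated start. It was present in 4 of the 100 protein-coding genes of highest TPM that had a RefSeq window, a share of 4%, in 1.28% of 9313 expressed genes and in 3.08% of all 16741 protein-coding genes with a window. The 4 genes were Vim, Col10a1, Ccn1 and Fscn1. The 60 bases before their starts are shown on GRCm38.p6 with the motif in capitals.
Vim, chr2:13574251-13574310, plus strand: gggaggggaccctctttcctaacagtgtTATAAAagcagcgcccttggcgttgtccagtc
Col10a1, chr10:34389921-34389980, plus strand: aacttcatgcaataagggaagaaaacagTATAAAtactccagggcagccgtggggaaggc
Ccn1, chr3:145649986-145650045, minus strand: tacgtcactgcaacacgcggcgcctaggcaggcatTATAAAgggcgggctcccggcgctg
Fscn1, chr5:142960295-142960354, plus strand: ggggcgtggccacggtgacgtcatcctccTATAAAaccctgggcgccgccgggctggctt
Vim had 3081 TPM, Col10a1 2131, Ccn1, a secreted matricellular protein, 1950.4, and Fscn1, an actin bundler, 898. A match describes these letters only and shows no binding.

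Growth factor ligands and their receptors were both widely expressed. Of 47 growth factor receptors, 38 were expressed: Fgfrl1 (355 TPM), Fgfr3 (248), Igf2r (239), the collagen receptor Ddr2 (162), Pth1r (148), Npr2 (131), Smo (115) and Tgfbr2 (106) were the highest, and Acvr2b, Erbb3, Flt1, Kdr, Kit and Notch3 were among those below 1 CPM. Of 69 ligands, 51 were expressed, led by Ccn2 (2799 ± 40.002 TPM) and Ccn1 (1950.4 ± 33.1), both matricellular proteins, before Fstl1 (407), Vegfa (289.6), Ccn5 (217), Angptl2 (129), Inhba (101) and Ccn4 (98.2). Among 22 fibroblast growth factors only Fgf7 (44.2 TPM), Fgf21 (41.2), Fgf13 (24.2) and Fgf2 (20.001) were expressed. In the Wnt pathway, 7 of 19 ligands were expressed, Wnt10b highest at 20.6 TPM and Wnt5b at 18.9, and 9 of 10 frizzled receptors, Fzd2 highest at 61.4 TPM and Fzd10 absent from the expressed set. In the BMP and GDF family, 11 of 21 were expressed, with Gdf5 (65.3 TPM), Bmp1 (47.01), Bmp5 (44.6) and Bmp4 (43.4) highest, and all 8 SMADs were expressed between 18.4 TPM for Smad1 and 56.3 for Smad4. Igfbp7 (722 TPM) and Igfbp5 (488) led the 6 of 7 expressed binding proteins of insulin-like growth factors.

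Mechanical and ionic sensing had 39 of 46 listed genes expressed. Trpv4, the osmotically and mechanically gated calcium channel of chondrocytes, had 305, 289 and 248 TPM and led the TRP family, of which 7 of 22 were expressed. Gja1, connexin 43, had 274 ± 23.1 TPM, Piezo1 153 ± 7.10 and Panx3 132 ± 7.997. Itgb1, the integrin beta chain common to collagen receptors, had 955 ± 48.7 TPM. Among 18 alpha chains, 12 were expressed, with the fibronectin receptor chain Itga5 (222 TPM) above Itga6 (143), Itga3 (91.4), Itgav (68.6) and the type II collagen receptor chain Itga10 (38.1).

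Most interleukin genes were not expressed, while several receptors were. Il1a, Il1b, Ifnb1 and Ifng had 0 counts in all 3 libraries. Of 41 interleukin genes, 6 were expressed, none above 14.8 TPM (Il11). Tnfrsf11b, osteoprotegerin, the decoy receptor that restrains osteoclasts, was the highest of 59 inflammatory receptors and mediators with 664, 761 and 876 TPM. Csf1 (293 TPM), Ptgs2 (cyclooxygenase 2, 244), Tnfrsf1a (220.3), Ltbr (191), Il6st (159), Osmr (62.7) and Il13ra1 (52.02) came next. Among CC chemokines 4 of 24 were expressed (Ccl9 highest, 17.1 TPM), among CXC chemokines 7 of 12 (Cxcl5 highest, 30.7 TPM), and among toll-like receptors 6 of 12 (Tlr4 highest, 21.2 TPM). Of 47 interferon response genes 30 were expressed in these transfected cells, led by B2m (562 ± 22.9 TPM), H2-D1 (159 ± 5.35), Tapbp (109.8 ± 2.41) and H2-K1 (93.8 ± 10.7). Class I genes have near-identical relatives, so the H2 values are uncertain to that extent.

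Genes of dividing cells and of energy supply were widely expressed. All 40 proliferation genes were expressed, from which Cdk4 (372 TPM), Rrm2 (319.6), Ccnd2 (201), Cdc20 (187), Ccnd1 (141), Ccnb2 (138), Ccna2 (129) and Hmgb2 (127) were the highest. All 17 genes of the list of CDK inhibitors and senescence markers were expressed as well, with Cdkn1c (258 TPM) and Cdkn1a (p21, 214) among the highest. Glycolysis genes took 1.74% ± 0.0194 of the counts. Ldha, which makes lactate, had 3105, 3304 and 3204 TPM, 50.4 ± 5.73 times the level of Ldhb (76.3 times on the longest transcript), and Pkm (2461 TPM), Gapdh (2124), Aldoa (2021), Tpi1 (2014), Pgk1 (1936), Eno1 (1447) and Pgam1 (581) followed. Hk3, Pdk4, Pgam2, Pklr and Slc2a4, mostly forms used by liver, muscle or fat, were among those below 1 CPM. Of 100 nuclear genes of the respiratory chain 93 were expressed, led by Atp5a1 (778 TPM) and Atp5b (765). Cytosolic ribosomal protein genes (80 of 84 expressed) took 3.04% ± 0.125 of the counts. Rpl24 was below 1 CPM with 18, 18 and 13 counts, and the many processed copies of ribosomal genes make single values uncertain.

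Antioxidant genes were expressed in 33 of 34 cases and some were very abundant. Ftl1 and Fth1, the ferritin chains that store iron, had 5312 ± 324 and 2185 ± 78.9 TPM, and both have many processed copies. Mt2 and Mt1, metallothioneins that bind zinc and copper, had 4259 ± 357 and 1786 ± 194 TPM, and Hmox1, heme oxygenase, had 1144 ± 38.1.

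Markers of 17 other cell types were examined to see what else the culture could hold: 66 of 166 genes reached 1 CPM and 36 had no count. Among all protein-coding genes, 11638 of 21914 reached that level. Blood lineages were near 0. None of 10 lymphocyte, 8 neutrophil, 6 mast cell or 8 erythroid markers was expressed. Of 14 macrophage markers 4 were, Cd68 (23.4, 17.7 and 24.3 TPM), Cd14 (12.4, 11.8 and 14.8), Lyz2 (3.89, 5.08 and 5.40) and Mrc1 (1.52, 2.19 and 2.55), and Adgre1 and Itgam had 0 counts in all libraries. The 14 markers summed to 17.02, 16.5 and 21.5 CPM. Of 11 endothelial markers only Erg, which chondrocytes of the joint surface also read, was expressed, and Cdh5, Pecam1 and Vwf were below 1 CPM. Osteoclast genes were limited to Ctsk (41.01 TPM) and Acp5 (23.4), of 8.

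Connective tissue and contractile markers were present. Of 13 fibroblast markers 10 were expressed. They were 5 collagen chains, Lum, Dcn, Pdgfra (28.8 TPM), Thy1 (12.3) and Fap (8.07), while Dpt, Pi16 and S100a4 were below 1 CPM. Of 12 mural and smooth muscle markers 9 were expressed. Acta2, smooth muscle actin, had 995, 1409 and 1354 TPM, lowest in replicate 1, and Tagln had 478, 586 and 641, while Myh11, Notch3 and Rgs5 were below 1 CPM. Of 12 osteoblast markers 5 were expressed, Col1a1, Ibsp (144 TPM), Alpl (47.02), Sp7 (28.1) and Runx2 (20.4), and Bglap, Bglap2, Dmp1, Ifitm5, Mepe, Phex and Sost were not. Of 7 tendon markers 5 were expressed. Fmod (1605 TPM), which is also a cartilage proteoglycan, and Egr1 (104) were the highest, Scx (35.8), Thbs4 (12.1) and Mkx (7.98) were lower, and Kera and Tnmd were below 1 CPM. All 10 stem and progenitor markers were expressed, with Ly6a (429.7 ± 72.97 TPM) and Nt5e (206 ± 7.89) highest. Of 10 Schwann and neural markers 5 were expressed, with a sum of 613 ± 46.3 TPM over the list. S100b, listed there and known in cartilage, had 597 ± 46.3 TPM, while Sox10 was below 1 CPM. Also expressed were 5 of 8 synovial lining, 6 of 9 epithelial and keratinocyte, 3 of 8 adipocyte and 2 of 13 skeletal muscle markers. Which cells these messages came from was not tested.

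**Figure D3:**
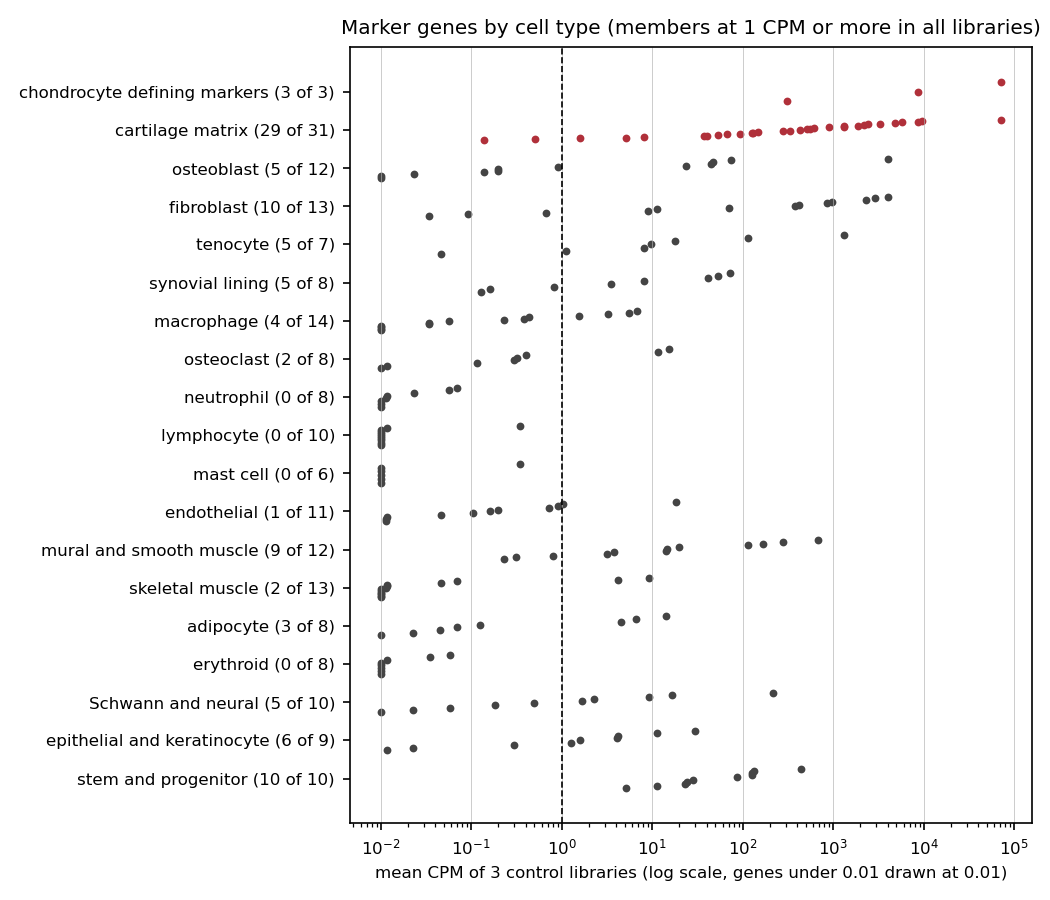
Mean CPM over the 3 control libraries (log scale) of each marker gene, 1 point per gene, by cell type, with the number at 1 CPM or more in all libraries in brackets and that level as a dashed line. Chondrocyte markers and cartilage matrix genes, of which 29 of 31 reached that level, are drawn in red, and no lymphocyte, neutrophil, mast cell or erythroid marker crosses the line.

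Families that serve other tissues marked the lower end. None of 1103 olfactory receptor genes and none of 351 vomeronasal receptor genes was expressed, and 1061 and 337 of them had no count at all. Only 2 of 25 claudins (Cldn12, 75.2 TPM, and Cldn1, 1.89), 9 of 49 keratins (Krt17 highest, 86.2 TPM) and 20 of 94 potassium channels (Kcna6 highest, 68.9 TPM) were expressed. Among all protein-coding genes it was 11638 of 21914, among solute carriers 201 of 364 and among Zfp zinc finger genes 325 of 395. The annexins stood at the other end with 10 of 11 expressed, Anxa8 (1449 TPM), Anxa5 (1278) and Anxa2 (1245) highest and Anxa10 below 1 CPM.

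Xist and genes of the Y chromosome were both expressed in every library. Xist, read from the inactive X, had 399, 443 and 526 CPM, lowest in replicate 1. Ddx3y, on the Y chromosome, had 17.1, 7.002 and 8.06 CPM, highest in replicate 1. The ratio of Xist to Ddx3y in TPM was 6.75, 18.3 and 18.9, so replicate 1 differed from the other two. Uty, also on the Y chromosome, had 4.52, 1.16 and 1.503 CPM in the same order.

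The 3 libraries agreed closely across genes. Among 9040 genes with a mean of 10 CPM or more, the median ratio of the highest to the lowest library was 1.10, and 10 percent of genes exceeded 1.22. A ratio of 1.5 was reached by 51 genes (0.564%) and a ratio of 2 by 6. Pearson correlations of log2 CPM across these genes were 0.996 for replicates 1 and 2, 0.995 for 1 and 3 and 0.995 for 2 and 3, where genes are not independent replicates. The libraries still differed by more than counting noise, with chi-square over degrees of freedom of 5.35, 15.1 and 10.2 for the same pairs, so no pair of count tables agreed within sampling noise. Such a difference does not tell separate cultures from separate preparations of 1 RNA sample. The common biological coefficient of variation, the spread beyond counting noise that edgeR fits over 14052 genes, was 6.23%. It was 5.04% without replicate 3, 6.49% without replicate 1 and 6.95% without replicate 2, and the DESeq2 median of gene-wise estimates was 3.44%.

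Spread followed the level of expression only at low counts. The median coefficient of variation was 16.0% for genes of 1 to 3 CPM, where counting noise alone gives 14.3%. It fell to 6.15% at 10 to 30 CPM (counting noise 4.34%) and 4.68% at 100 to 300 CPM (1.55%). For the 71 genes above 1000 CPM it was 5.07%, against 0.431% from counting.

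**Figure D4:**
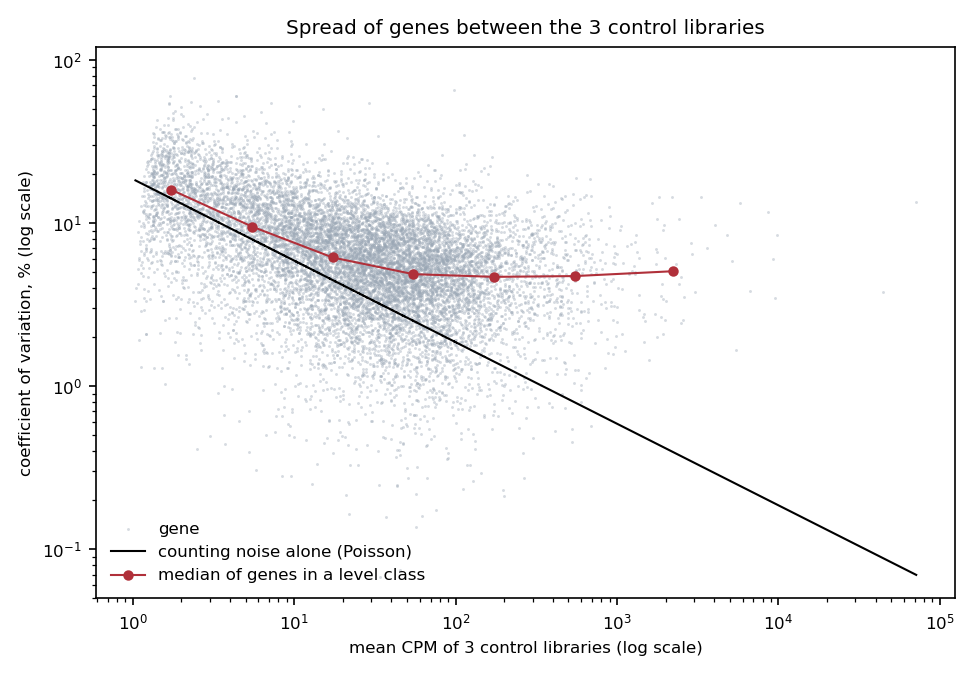
Coefficient of variation between the 3 control libraries in percent against mean CPM (both log scales), 1 point per gene at 1 CPM or more in all libraries. The black line is counting noise alone and the red points are medians of level classes, which level off near 5% from 30 CPM upward while the line goes on falling.

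The widest spread among genes with a mean of 10 CPM or more was that of Bc1. Bc1, a short noncoding RNA, had 59.6, 62.3 and 172 CPM, with replicate 3 apart from the other two. Genes with clone or predicted names were left out of the ranking by coefficient of variation. Among these, Gm10736 and Gm6166, both processed pseudogenes and named here after their values were seen, had highest to lowest ratios of 3.58 and 3.20, wider than the 2.88 of Bc1. Of the ranked genes Ddx3y was next, and the third was Atp5o, a subunit of ATP synthase, with 21.7, 10.8 and 23.4 CPM, lowest in replicate 2. Junb, an immediate early factor, had 87.7, 93.2 and 158 CPM, highest in replicate 3, whereas Jun and Fos had 77.4, 82.2 and 85.9 and 78.3, 84.7 and 77.2. Larp1b had 37.2, 20.3 and 41.4 CPM and the secreted factor Gdf10 29.4, 17.5 and 16.8. The list went on with Glipr1, Ctsk, Lcn2, Lsm3, Rpl39, the complement gene C4b, Atp5k, Rps29 and Scand1, with ratios of highest to lowest library between 1.58 (Lsm3) and 1.82 (Glipr1). Rpl39, Rps29 and Atp5k were lowest in replicate 2, at 142, 91.4 and 156, 186, 120.01 and 199.8 and 22.6, 15.7 and 26.9 CPM. Replicate 3 was the highest library for 31 of the 51 genes past a ratio of 1.5, replicate 1 for 17 and replicate 2 for 3. Over all 9040 genes the shares were 51.7%, 20.6% and 27.6% in that order. Replicate 2 was the lowest library for 24 of the 51, beside 31.4% of all 9040 genes.

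Replicate 2 was also lowest more often among genes of the shortest and of the longest transcripts than among those between. Among 29 protein-coding genes whose longest transcript is at most 600 bases, 18 were lowest in replicate 2 (62.1%), and their median log2 deviation there was −0.08. For 600 to 1000 bases the count was 121 of 251 (48.2%), for 1000 to 2000 bases 268 of 1210 (22.1%). It was 824 of 3570 (23.1%) for 2000 to 4000 bases and 1231 of 3227 (38.1%) for 4000 to 8000. Above 8000 bases it was 321 of 579 (55.4%). Over all 9040 genes replicate 2 was lowest for 31.4%. The part of transcript length in the differences between libraries was not tested.

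The steadiest ranked gene at 100 CPM or more was Irs1. Irs1, the insulin receptor substrate, had 199.9, 200.3 and 201 CPM, Scaf1 111, 111 and 112 and Nek9, a kinase, 129, 129 and 129. Larp1, Nbr1, Mia2, Bcap31, Prkcsh, Ddx50, Lgr4, Slc4a2, Sar1a and Gga2 were also among the 15 steadiest, with coefficients of variation from 0.213% (Irs1) to 0.511% (Gga2). Each of these genes lay below the counting noise of its own level, 1.07% for Sar1a to 1.78% for Slc4a2, which picking the lowest of many genes brings about. Of genes often used as references, Actb had 1731, 1989.9 and 2062 CPM, Gapdh 2202, 2253 and 2042 and Rplp0 1503, 1515 and 1446, with coefficients of variation of 9.03%, 5.09% and 2.499%.

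Cartilage matrix genes differed between the libraries together. Of the 26 with a mean of 10 CPM or more, 22 were lowest in replicate 3 and 20 highest in replicate 1, and the median log2 deviation from each gene's mean was 0.12, 0.04 and −0.15. Over all 9040 genes the medians were −0.03, −0.01 and 0.03, 24.2% were lowest in replicate 3 and 20.6% highest in replicate 1. Collagens showed the same direction, with 17 of 26 lowest in replicate 3, and so did genes of procollagen folding, 23 of 31. The collagens share Col2a1, Col9a1, Col9a2, Col11a1 and Col11a2, among others, with the matrix list, so their count is not a separate observation. Proliferation genes stood the other way, with 34 of 40 highest in replicate 3, 32 of 40 lowest in replicate 2, and medians of −0.03, −0.07 and 0.08. Nuclear respiratory chain genes were highest in replicate 3 in 53 of 84 cases and proteasome subunits in 28 of 34, and cytosolic ribosomal protein genes were lowest in replicate 2 in 57 of 79. Over all genes 51.7% were highest in replicate 3 and 31.4% lowest in replicate 2. Markers of other cells also differed between the libraries. The 12 mural and smooth muscle markers summed to 1097, 1395 and 1401 CPM, and 7 of them had a mean of 10 CPM or more. Of these 7, 6 were lowest in replicate 1, beside 44.4% of all genes, and their median deviations were −0.25, 0.04 and 0.12. The smooth muscle myosin gene Myh11, a defining marker of that list, had 0.313, 0.175 and 0.205 CPM. Of the 10 stem and progenitor markers, which summed to 960.1, 960.4 and 1088 CPM, 9 had that mean, 7 of these were highest in replicate 3, and their medians were −0.04, −0.07 and 0.17. The part of these cells in the differences of the matrix genes was not tested. The directions named here were the same with TMM scaling and with DESeq2 size factors. Under both, 24 of the 26 matrix genes were lowest in replicate 3. Proliferation genes highest there numbered 26 and 27 of 40, against 34 with CPM. All-gene shares were not computed under these scalings, and the shares above hold for CPM only. The all-gene medians in replicate 3 were then 9.8e-05 and 0.003. Those of matrix genes were −0.18 and −0.18, and those of proliferation genes 0.05 and 0.05. These are 3 samples with no order and no test, and what the libraries differed in beyond their messages was not tested.

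**Figure D5:**
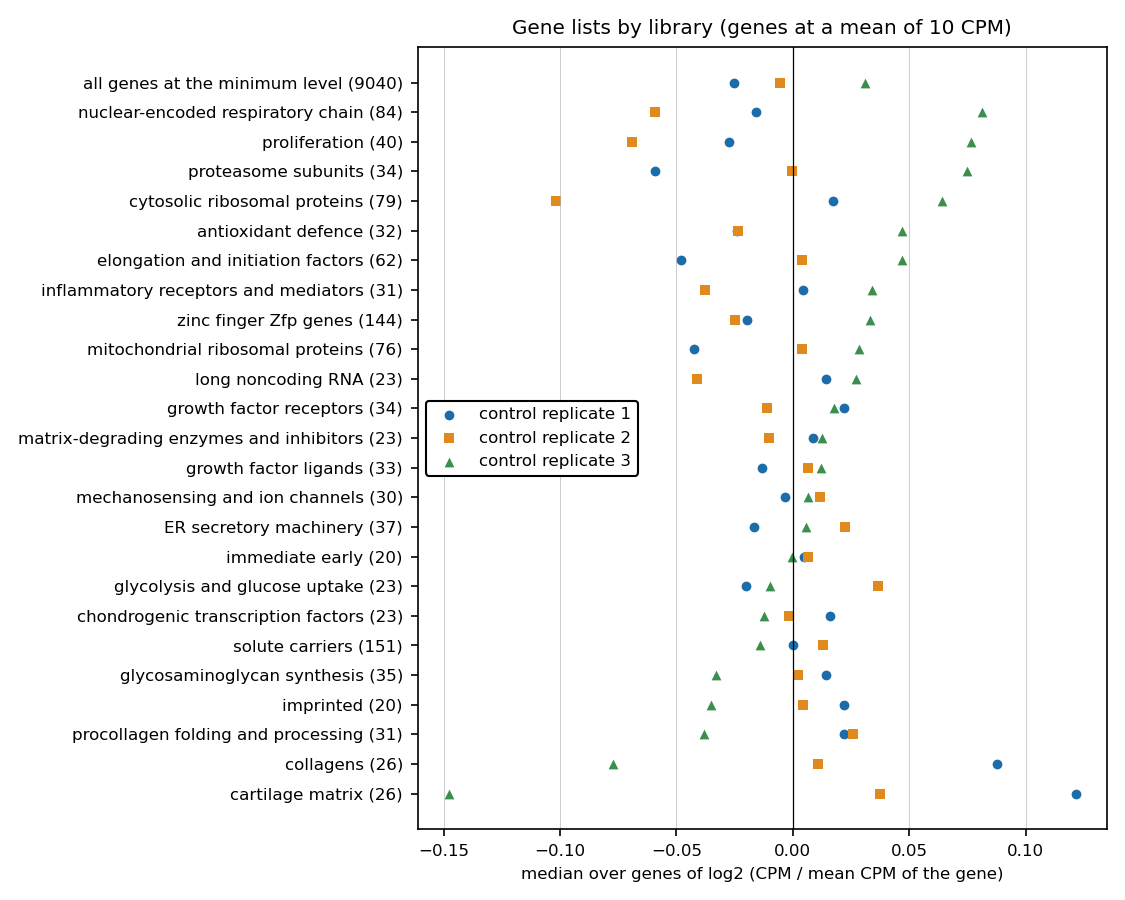
Median over the genes of a list of log2 CPM relative to the gene's mean over the 3 libraries, for lists with at least 20 genes at a mean of 10 CPM (number in brackets; the shorter marker lists of other cells are not drawn) and for all 9040 such genes. Cartilage matrix runs from 0.12 in replicate 1 to −0.15 in replicate 3, while proliferation, respiratory chain and proteasome lists are highest in replicate 3.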

How the data were processed

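RNA was extracted with TRI reagent and libraries were made with the TruSeq Stranded mRNA kit, per the labels' protocols; such kits select polyadenylated RNA. The authors deposited raw read counts per gene for each library, used here as whole numbers. Trimmomatic 0.39, FastQC, STAR and the GRCm39 build are named per the submitters' processing notes, and for the counting tool, annotation release and strand setting the entry is: not given in the sources used here. Reads of overlapping genes and near-identical copies may therefore be split or merged, and mitochondrially encoded genes were not analysed here. Groups were taken from the titles.

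CPM used the total of the gene counts. TPM used the union of exons of GENCODE M21, matched by gene identifier (52096 of 55377 genes). M21 is on GRCm38, so it served for identifiers, lengths and microRNA hosts only. RefSeq sequences are on GRCm38.p6. Gene totals per library were 28565096 to 29282494. With 1 group there was no test. Dispersion was fitted with edgeR 4.0.16 (R 4.3.3) after a low-count filter, with DESeq2 1.42.0 as an alternative, and the dispersion fit was tested on simulated data. Alternatives were other level minimums, scalings, lengths and leaving out each replicate.

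The members and lists were chosen with earlier results of these data known. Of 957 listed genes 955 matched a symbol. Named genes were the 3 markers, the 30 of highest TPM and 10 of highest CPM, in each list up to 8 of highest TPM and 6 below 1 CPM, every member of lists of 14 or fewer, 15 transcription factors of highest TPM, and the 15 of widest and narrowest spread that have no clone or predicted name. Tbx5, Ihh, Igf2, Adamts4, Wwp2, Col27a1, Ldhb, Fscn1, Gm10736 and Gm6166 were named after their values were seen. The microRNA, promoter, transcript length and list scaling checks were also chosen after seeing the data, and the pattern that selects core histones was corrected then. Some genes that meet the rule are not reported here.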

Additional observations from a re-analysis of the deposited data

How the results depend on the processing

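Of 47 alternative values for 10 results, 38 stayed within the spread of the main value or within 1.5 times its count. For the shares of counts and the Col2a1 ratios, leaving out 1 replicate cannot move the mean of 3 libraries past their SD. Those values are among the 38 by construction and test nothing. For the biological coefficient of variation the spread used was the SD of the 3 estimates with 1 replicate left out, 0.996. Those estimates were thus judged by their own spread. The number of expressed genes was 13481 at 0.5 CPM, 11526 at 2 CPM, 14104 at 10 counts and 12542 to 12554 when 1 replicate was left out, and it was 12451 with TMM scaling and DESeq2 size factors too, since 1 CPM took 29, 29 and 30 counts under each scaling. On the longest annotated transcript the Col2a1 to Col1a1 ratio was 20.5 and the Col2a1 to Acan ratio 11.9, because the exon-union lengths differ from transcript lengths. The biological coefficient of variation was 3.44% as the DESeq2 median of gene-wise estimates and 5.04% (without replicate 3) to 6.95% (without replicate 2) when 1 replicate was left out. Genes whose highest library was at least 1.5 times the lowest numbered 11 at a mean of 50 CPM, 5214 with no minimum level, where counting noise is large, 46 with TMM scaling, and 18 to 30 with 1 replicate left out, which leaves 2 libraries and so a narrower range. Values without mitochondrially encoded genes were not computed, since those genes were not analysed here. No paired analysis was possible because only the control group was described and no result came from a test. Limits: 3 libraries of unstated origin, exon-union lengths from another build, and no cell-level data. Genes under 29 to 30 counts per library were not called expressed, although some of them, Rpl24 for example, had counts in every library.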
